A study of Mus musculus with 6 samples.

Results

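The genes described here encode the subunits of 5 protein assemblies that move vesicles along the secretory pathway: the TRAPP, COG and exocyst tethering complexes and the COPI and COPII vesicle coats. Members were taken by symbol from the platform annotation, using only probe sets that name a single gene. This gave 39 of the 12393 genes measured, with 10 for TRAPP, 5 for COG, 5 for the exocyst, 9 for COPI and 10 for COPII, on 58 probe sets. A further 16 genes whose symbols match the same rule in RefSeq, among them Sec24a, Cog3, Exoc2 and Trappc9, were not analysed here.

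Expression was measured on 6 Affymetrix mouse arrays, 3 hybridised with RNA of cells of a line called PPP3R1 that had been starved for 6 h and 3 with RNA of the same line in normal medium, called control. PPP3R1 is also the symbol of the regulatory B subunit of calcineurin; the labels do not say how that gene was altered, what the starvation medium lacked, or whether the line is a single clone. According to the titles and design text the control is the PPP3R1 line itself, whereas the growth and treatment protocols give wild-type mouse embryonic fibroblasts (MEFs) in that role. Groups follow the titles here, and in every difference below starvation cannot be told apart from a difference between lines if the protocols are right. Replicates are called biological without mention of separate cultures, and if they share one, the p-values reflect technical spread. Ppp3r1 itself was at 9.97, 10.02 and 9.99 in control and 10.09, 10.07 and 10.08 in starved cells, a difference that did not pass (0.09 ± 0.05, limma adjusted p = 0.215). The median level of 10 fibroblast markers was 12.49 on the log2 scale, with 3 higher and 3 lower in starved cells and Thy1 alone under a level of 5, whereas the median levels of leukocyte, epithelial, endothelial, neural and muscle markers lay between 3.88 and 5.09. Arrays correlated at 0.998 within groups and at 0.986 to 0.988 between them. In bulk RNA, fewer transcripts per cell and a change in the makeup of the culture cannot be told apart.

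Secretory and membrane proteins leave the endoplasmic reticulum in vesicles coated by COPII, while COPI vesicles carry escaped proteins and enzymes back from the Golgi apparatus and between its cisternae. Tethers catch a vesicle before it fuses: TRAPP acts at the endoplasmic reticulum and Golgi and is also the exchange factor that switches on Rab1 and Rab11, COG catches vesicles that recycle Golgi enzymes, and the exocyst ties secretory vesicles to the plasma membrane. Fibroblasts depend on this route for the export of collagen and other matrix proteins, and parts of TRAPP, COPII and the exocyst are also used when cells build autophagosomes.

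Changes are starved minus control in log2 units with the standard error (SE) of limma, n = 3 per group, and each gene stands by its probe set with the highest mean. A gene is said to have risen or fallen where limma's Benjamini-Hochberg adjusted p, taken over all probe sets of the array, was under 0.05. In starved cells 10 of the 39 genes rose, 14 fell and 15 did not pass. Over all genes tested 40.8% passed (20.8% higher and 20.1% lower), against 61.5% of the members. The members were brighter than most genes, with a median level of 9.35 against 7.25. Among the 7372 genes at least as bright as the dimmest member 58.8% passed (30.7% higher and 28.1% lower), which is close to the share of members. These 7372 genes are called genes of the members' brightness below. The limit is only a floor, and they were not matched to the levels of the members. The groups did not overlap in 35 of the 39 members, 12 higher and 23 lower, against 52.5% of all genes (26.3% higher and 26.2% lower). That share covers genes of every brightness and was not computed for genes as bright as the members, so no excess is read from it. The median absolute change was 0.19 in the members and 0.16 in all genes. The changes were small: folds of the called members ran from 1.12 to 1.69, and 1 member moved by at least 0.5, against 14.4% of all genes.

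**Figure D1:**
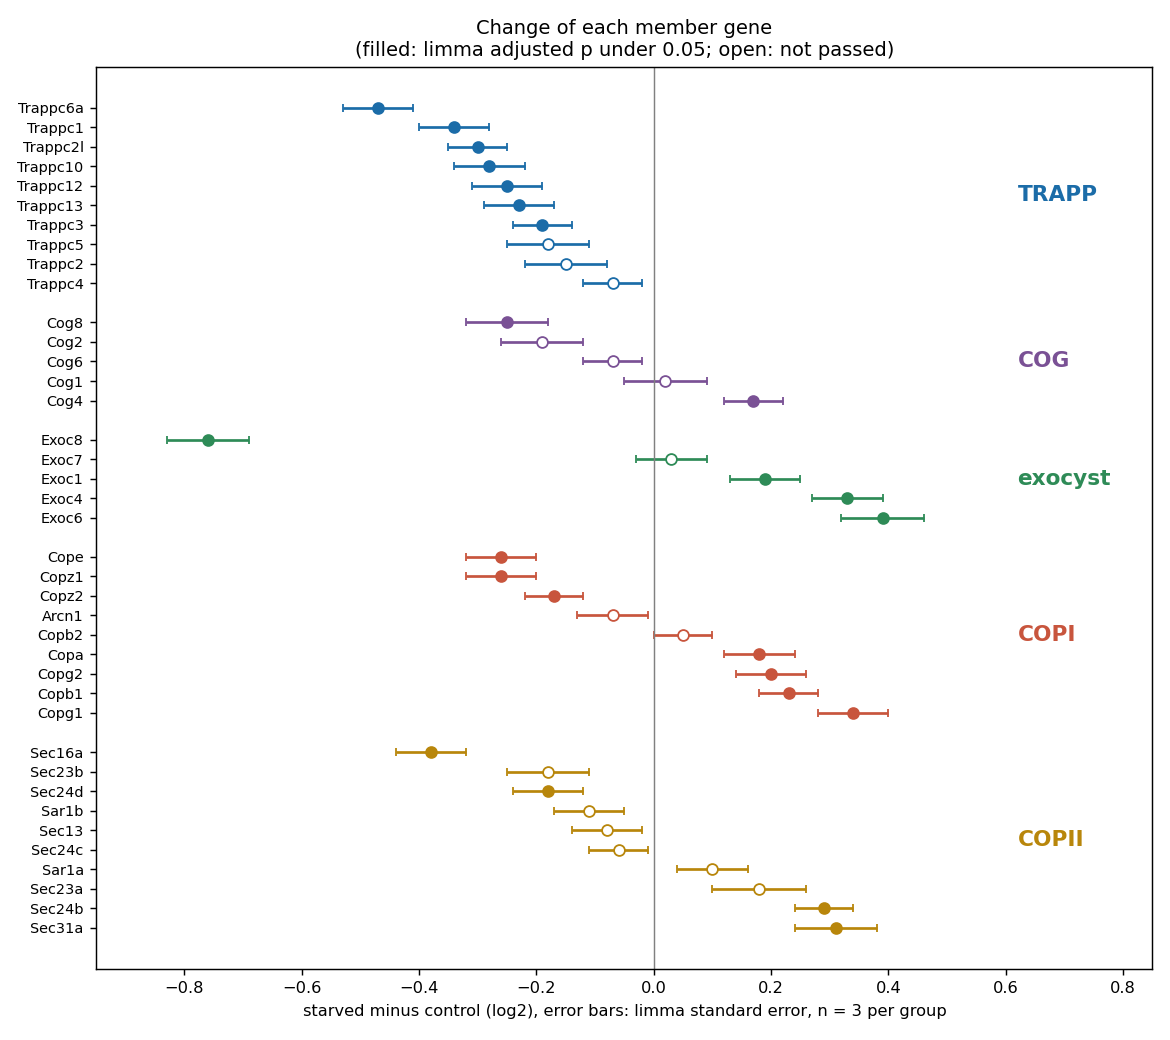
Change of each member (starved minus control, log2, horizontal axis) with the limma standard error (bars, n = 3 arrays per group), grouped by complex; filled points passed an adjusted p of 0.05. All 10 TRAPP points lie below 0, while the other 4 complexes have points on both sides, from -0.76 for Exoc8 to 0.39 for Exoc6.

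Of the 10 measured TRAPP genes 7 fell and 0 rose in limma's test, where 20.1% of all genes and 28.1% of genes of the members' brightness fell (at an unadjusted p under 0.05, 8 fell and 0 rose). The median change was -0.24 against -0.01 over all genes, and the brightest probe set of each of the 10 had a negative estimate. The 3 that did not pass at the adjusted threshold were Trappc2, Trappc4 and Trappc5. The largest fall was in Trappc6a, which encodes a small subunit of the core shared by all forms of the complex. Its values were 9.18, 9.15 and 9.04 in control and 8.65, 8.63 and 8.66 in starved cells, so that the groups lay well apart. The change was -0.47 ± 0.06, or 1.39-fold (limma adjusted p = 0.000463). Trappc1, another core subunit, was at 9.74, 9.67 and 9.76 in control and 9.40, 9.39 and 9.35 in starved cells (-0.34 ± 0.06, limma adjusted p = 0.00165). Trappc2l, a core subunit related to sedlin, was at 10.51, 10.48 and 10.56 in control and 10.25, 10.21 and 10.19 in starved cells (-0.30 ± 0.05, limma adjusted p = 0.00302). In both genes every starved array lay below every control array. The core subunit gene Trappc3 was at 9.38, 9.37 and 9.44 against 9.23, 9.18 and 9.20, a fall of 0.19 with an SE of 0.05.

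Of the subunits that set the larger TRAPP forms apart from the core, the 3 measured were lower too. TRAPPII is represented by 1 gene, and Trappc8, Trappc9 and Trappc11 were not analysed here. Trappc10 marks TRAPPII, the form that acts on Rab11 at the late Golgi. It was at 8.75, 8.70 and 8.84 in control and 8.43, 8.53 and 8.50 in starved cells (-0.28 ± 0.06, limma adjusted p = 0.00777). Trappc12 and Trappc13 belong to TRAPPIII, the form that acts on Rab1 and is linked to autophagy. Trappc12 was at 8.06, 7.96 and 7.96 in control and 7.71, 7.78 and 7.75 in starved cells (-0.25 ± 0.06, limma adjusted p = 0.00978). Trappc13 was at 7.56, 7.53 and 7.66 in control and 7.36, 7.34 and 7.37 in starved cells (-0.23 ± 0.06, limma adjusted p = 0.0155). All 3 fell without overlap of the groups.

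Trappc3 and Trappc13 sit close to the threshold. The call of Trappc3 was lost without control replicate 3, starved replicate 2 or starved replicate 3 (adjusted p = 0.0569, 0.0711 and 0.0611, between 0.00315 and 0.0711 in all alternatives), and that of Trappc13 without starved replicate 2 (adjusted p = 0.0510, between 0.00601 and 0.0510 in all alternatives). Among the core genes that did not pass, Trappc2, which encodes sedlin, differed by -0.15 ± 0.07. Trappc4 was at 9.13, 9.08 and 9.13 in control and 9.03, 9.05 and 9.04 in starved cells, a difference of -0.07 ± 0.05 in its brightest probe set, while its other probe set, near background at a control mean of 4.57, fell by 0.29 with an SE of 0.08. Trappc5 is the exception to the common direction. Its brighter probe set was at 8.55, 8.53 and 8.66 in control and 8.29, 8.46 and 8.47 in starved cells (-0.18 ± 0.07, not passing), but the dimmer one rose from 7.16, 7.01 and 7.02 to 7.40, 7.30 and 7.47 (0.33 ± 0.07, limma adjusted p = 0.00739). The mean of both probe sets gave 0.08, so Trappc5 has no settled direction.

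**Figure D2:**
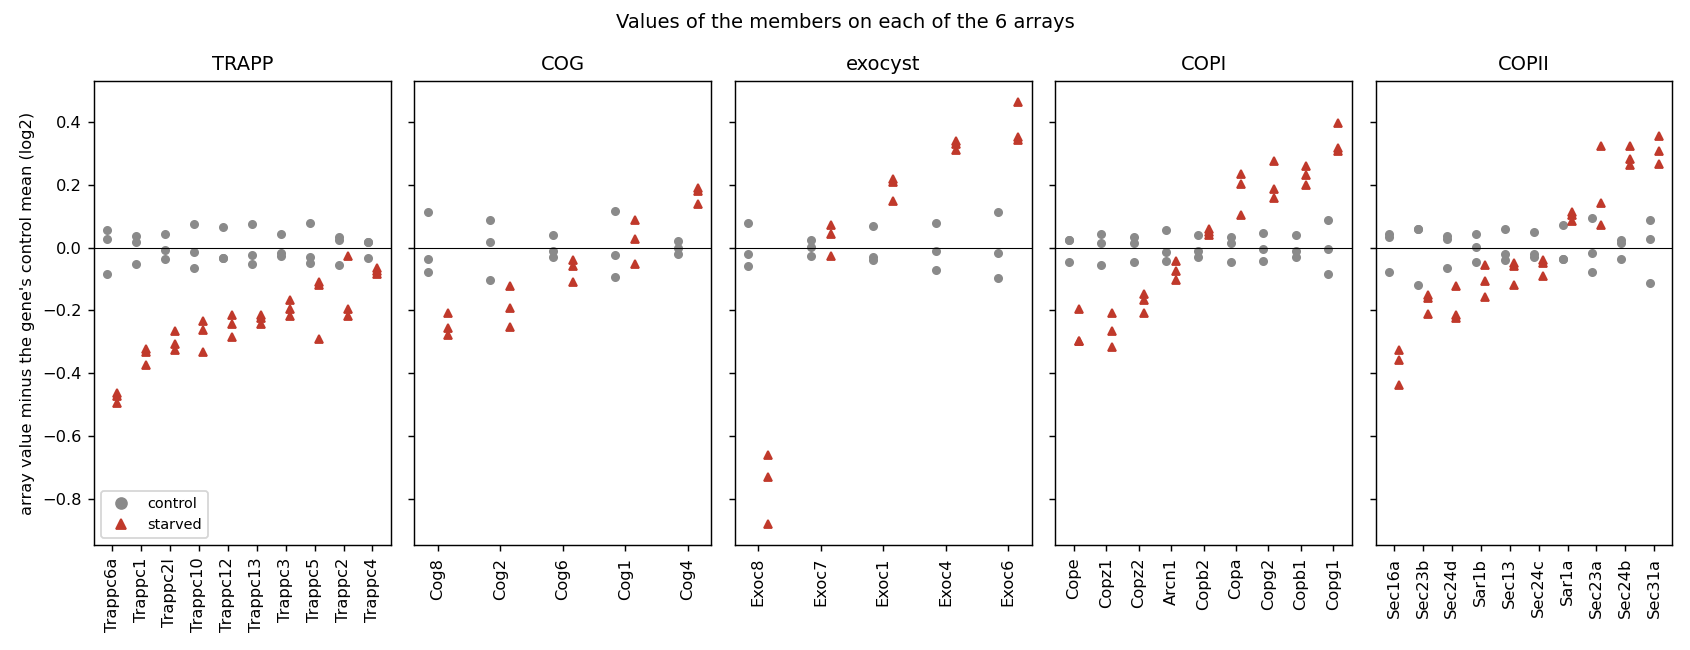
Value of each member on each array minus the gene's mean over the control arrays (log2, vertical axis), with grey circles for the 3 control and red triangles for the 3 starved arrays, by complex. The starved arrays lie below the control arrays in 9 of 10 TRAPP genes (Trappc2 overlaps), and Exoc8 lies farther from its control arrays than any other member.

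Of 5 measured exocyst genes 3 rose, 1 fell and 1 did not pass (median 0.19). Over all genes 20.8% rose and 20.1% fell, and among genes of the members' brightness 30.7% and 28.1%. Exoc8 encodes Exo84, a subunit that binds active Ral GTPases, which in starved human cells has been described as a platform for autophagy factors. It had the largest change of all 39 members: 7.42, 7.38 and 7.52 in control against 6.78, 6.56 and 6.71 in starved cells. This was a fall of 0.76 with an SE of 0.07, or 1.69-fold (limma adjusted p = 0.000143), and the gap between the groups was wider than the spread within either. The estimate rests on 1 probe set, and it passed in every alternative tried.

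The exocyst genes that rose were Exoc1, Exoc4 and Exoc6. Exoc6 encodes Sec15, which links the complex to Rab11 on vesicles. It was at 6.01, 6.22 and 6.09 in control and 6.45, 6.57 and 6.46 in starved cells (0.39 ± 0.07, limma adjusted p = 0.00336), and its second probe set rose by 0.26 with an SE of 0.06, though at a level under 4. Exoc4 encodes Sec8, a core subunit. Its brightest probe set was at 9.92, 9.86 and 10.01 in control and 10.27, 10.26 and 10.24 in starved cells (0.33 ± 0.06, limma adjusted p = 0.00303). All 5 Exoc4 probe sets rose, by 0.19 to 0.39, so this gene has the best-covered rise of the 39. Exoc1 encodes Sec3, which contacts the plasma membrane. It was at 8.35, 8.36 and 8.46 in control and 8.54, 8.60 and 8.61 in starved cells (0.19 ± 0.06, limma adjusted p = 0.0319). Leaving out any array other than control replicate 3 ended this call (adjusted p from 0.0501 to 0.0968, range over its alternatives 0.0108 to 0.0968). Exoc7, which encodes the membrane-binding subunit Exo70, was at 8.57, 8.60 and 8.62 in control and 8.67, 8.57 and 8.64 in starved cells, and the groups overlapped (0.03 ± 0.06).

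COG genes showed little. Of 5 measured, 1 rose, 1 fell and 3 did not pass, with a median of -0.07. The share called was 40.0%, against 40.8% of all genes and 58.8% of genes of the members' brightness. After a second quantile normalization or centring on array medians 0 rose and 2 fell, with Cog4 no longer called and Cog2 called lower. Cog8, of the lobe called B, was at 7.86, 7.82 and 8.01 in control and 7.69, 7.64 and 7.62 in starved cells (-0.25 ± 0.07, limma adjusted p = 0.0192). Cog4, of lobe A, was at 9.68, 9.66 and 9.64 in control and 9.84, 9.80 and 9.85 in starved cells (0.17 ± 0.05, limma adjusted p = 0.0344). Neither call was firm. Cog8 lost its call without starved replicate 2 or 3 (adjusted p = 0.0558 and 0.0635, between 0.00553 and 0.0635 in all alternatives). Cog4 lost its call without any single array (adjusted p from 0.0637 to 0.106) and when its 3 probe sets were averaged (adjusted p = 0.432, range 0.00589 to 0.432), since the dimmest of them had an estimate of -0.16 ± 0.06. Cog6 was at 8.56, 8.58 and 8.63 in control and 8.53, 8.48 and 8.55 in starved cells and did not pass (-0.07 ± 0.05). Cog2 differed by -0.19 ± 0.07 (limma adjusted p = 0.0585), and it passed without control replicate 2 (adjusted p = 0.0319, lowest of all alternatives 0.0212). For Cog1, the estimates of 5 probe sets ran from -0.20 to 0.10 and none passed.

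COPI genes moved in both directions, as genes did at large. Of 9 COPI genes 4 rose, 3 fell and 2 did not pass, with a median of 0.05. Over all genes 20.8% rose and 20.1% fell, and among genes of the members' brightness 30.7% and 28.1%. The genes that rose encode the alpha, beta and gamma subunits, and those that fell encode the epsilon and zeta subunits, which are the small ones. Copg1, for the gamma subunit that binds the GTPase Arf1, was at 10.23, 10.31 and 10.40 in control and 10.71, 10.62 and 10.63 in starved cells. It rose by 0.34 ± 0.06 (limma adjusted p = 0.00355), and its second probe set by 0.28 ± 0.06. Its paralog Copg2 was at 8.95, 8.99 and 9.04 in control and 9.27, 9.15 and 9.18 in starved cells (0.20 ± 0.06, limma adjusted p = 0.0259). Both gamma genes were therefore higher in every starved array than in any control array. Copb1, for the beta subunit, was at 9.71, 9.78 and 9.73 in control and 10.00, 9.94 and 9.97 in starved cells (0.23 ± 0.05, limma adjusted p = 0.01003). Copa, for the alpha subunit of the outer cage, was the brightest member, at 11.37, 11.29 and 11.35 in control and 11.57, 11.54 and 11.44 in starved cells (0.18 ± 0.06, limma adjusted p = 0.0450).

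On the other side, Cope, for the epsilon subunit that steadies alpha in the cage, was at 10.72, 10.65 and 10.72 in control and 10.40, 10.40 and 10.50 in starved cells (-0.26 ± 0.06, limma adjusted p = 0.00764). The paralogs Copz1 and Copz2 encode the zeta subunit, the small partner of gamma. Copz1 was at 10.80, 10.73 and 10.83 in control and 10.52, 10.47 and 10.58 in starved cells (-0.26 ± 0.06, limma adjusted p = 0.00838). Copz2 was at 10.46, 10.54 and 10.52 in control and 10.34, 10.30 and 10.36 in starved cells (-0.17 ± 0.05, limma adjusted p = 0.0336). Both zeta genes thus fell while both gamma genes, whose products bind them directly, rose. Copb2, for the beta-prime subunit that pairs with alpha and recognises dilysine retrieval signals, was at 10.78, 10.80 and 10.85 in control and 10.85, 10.86 and 10.87 in starved cells and did not pass (0.05 ± 0.05). Arcn1, for the delta subunit, had no settled direction: its brighter probe set differed by -0.07 ± 0.06, its dimmer one rose by 0.26 ± 0.06, and the mean of both was 0.09.

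The calls of Copa, Copg2 and Copz2 depend on single arrays. Only starved replicate 3 could be left out without loss of the Copa call (adjusted p otherwise 0.0724 to 0.132). The call was also lost after a second quantile normalization (adjusted p = 0.0741) or centring on array medians (adjusted p = 0.0621), and all alternatives lay between 0.00173 and 0.132. Copg2 lost its call without control replicate 1 or 2 or starved replicate 1 or 3 (adjusted p from 0.0597 to 0.0818, range 0.00390 to 0.0818). Copz2 kept its call only without control replicate 1 among the arrays left out (adjusted p otherwise from 0.0679 to 0.105, range 0.00282 to 0.105). Copg1, Copb1, Cope and Copz1 passed on leaving out each array in turn.

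Of 10 COPII genes 2 rose, 2 fell and 6 did not pass (median -0.07). This is close to the shares of all genes (20.8% higher and 20.1% lower). Among genes of the members' brightness 30.7% rose and 28.1% fell. The scaffold gene Sec16a, whose product marks the sites where the coat assembles, had the largest change. It was at 9.12, 9.24 and 9.23 in control and 8.84, 8.87 and 8.76 in starved cells, and the groups were apart. The fall was 0.38 with an SE of 0.06 (limma adjusted p = 0.00178), and a second probe set fell by 0.35 with an SE of 0.09. Sec31a, which forms the outer cage with Sec13, was at 10.05, 9.91 and 10.11 in control and 10.33, 10.29 and 10.38 in starved cells (0.31 ± 0.07, limma adjusted p = 0.00761). Its partner Sec13, also part of the nuclear pore, differed by -0.08 ± 0.06 without passing.

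The inner coat holds Sec23, which makes Sar1 hydrolyse GTP, and Sec24, which selects cargo, and paralogs of each were compared by their own changes. Sec24b rose: it was at 8.42, 8.48 and 8.47 in control and 8.72, 8.78 and 8.74 in starved cells (0.29 ± 0.05, limma adjusted p = 0.00319), and its second probe set rose by 0.39 ± 0.08. Sec24d fell from 9.89, 9.98 and 9.99 to 9.83, 9.73 and 9.74 (-0.18 ± 0.06, limma adjusted p = 0.0405). Sec24c was at 9.55, 9.54 and 9.62 in control and 9.53, 9.52 and 9.48 in starved cells and did not pass (-0.06 ± 0.05). The fall of Sec24d was lost without control replicate 2 or 3 or starved replicate 2 or 3 (adjusted p from 0.0985 to 0.119, range over its alternatives 0.00471 to 0.119), whereas the rise of Sec24b passed on leaving out each array. Sec23a was at 10.31, 10.42 and 10.25 in control and 10.65, 10.40 and 10.47 in starved cells, and its groups overlapped (0.18 ± 0.08, limma adjusted p = 0.119). Sec23b was at 9.32, 9.50 and 9.50 in control and 9.23, 9.28 and 9.29 in starved cells (-0.18 ± 0.07, limma adjusted p = 0.0726), and it passed without control replicate 1 (adjusted p = 0.0250, between 0.0148 and 0.195 in all alternatives). Sec23a and Sec23b thus had estimates of opposite sign, neither of which passed, and the difference between them was not tested.

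Sar1a and Sar1b encode the GTPase that starts coat assembly. Sar1a was at 10.99, 10.99 and 11.10 in control and 11.13, 11.11 and 11.14 in starved cells in its brighter probe set (0.10 ± 0.06, limma adjusted p = 0.195). Its other probe set, nearly as bright, fell from 10.92, 10.96 and 11.00 to 10.77, 10.82 and 10.77 (-0.18 ± 0.05, limma adjusted p = 0.0319), and the mean of both was -0.04, so Sar1a has no settled direction. Sar1b was at 10.38, 10.29 and 10.34 in control and 10.28, 10.18 and 10.23 in starved cells and did not pass (-0.11 ± 0.06).

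**Figure D3:**
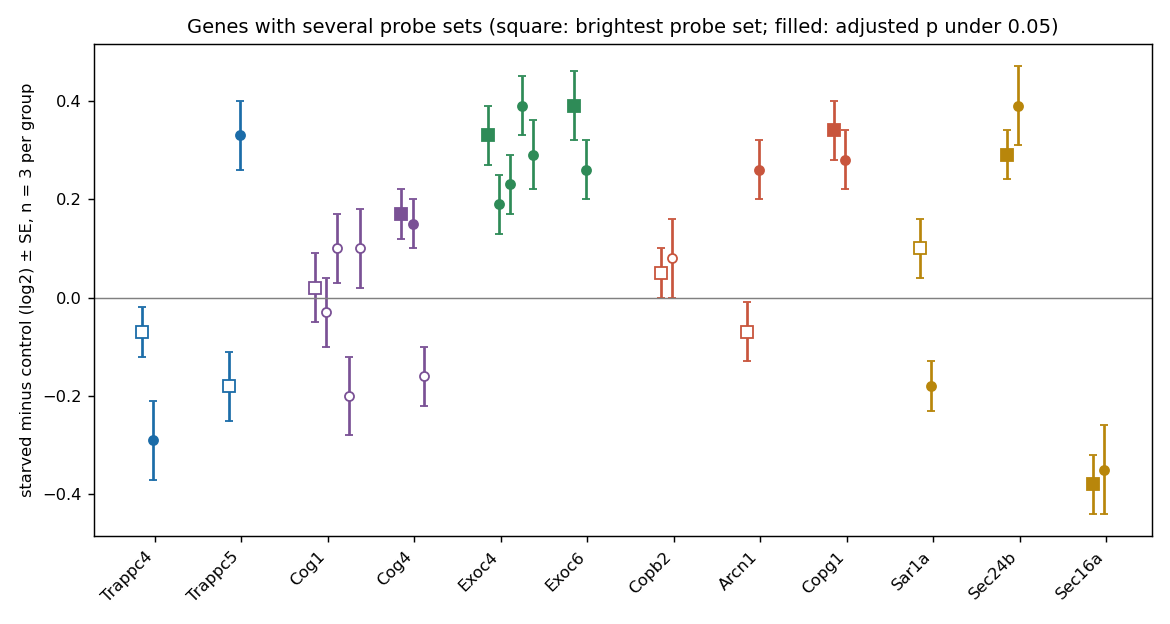
Change (starved minus control, log2, vertical axis) with the limma standard error (n = 3 arrays per group) of every probe set of the 12 members that have several; squares are the brightest probe sets and filled symbols passed an adjusted p of 0.05. The probe sets of Exoc4, Exoc6, Copg1, Sec24b and Sec16a share a direction, whereas those of Trappc5, Cog1, Cog4, Arcn1 and Sar1a lie on both sides of 0.

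Of the 12 members with more than 1 probe set, the estimates of 7 shared a sign and those of 5 did not, and 0 had probe sets called in opposite directions. In 4 members (Trappc4, Trappc5, Arcn1 and Sar1a) a dimmer probe set passed where the brightest did not. Over the 58 probe sets 20 rose and 17 fell, against 39.5% of all probe sets, of every brightness, called in either direction. Exoc4 supplies 5 of the 20, so the count over probe sets leans on this gene.

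The members that rose had longer genes than those that fell. The span of a gene on the chromosome, from the RefSeq annotation of GRCm38.p6, ran from 25.8 to 725 kb with a median of 47.8 kb in the 10 members that rose, and from 1.81 to 101 kb with a median of 12.4 kb in the 14 that fell. The longest was Exoc4 and the shortest Trappc1. Across the 39 members the Spearman correlation between span and change was 0.51, and across 12375 genes it was 0.11; both are descriptions over genes of the same 6 arrays, and genes are not independent replicates. Of the 7 members with a span of up to 8.12 kb 0 rose and 5 fell, where 12.8% of all genes this short rose and 22.3% fell. Of the 9 members with a span of 47.9 kb or more 5 rose and 3 fell, where 24.8% of all genes this long rose and 17.2% fell. Among genes at least as bright as the dimmest member, 22.4% of the short ones rose and 36.9% fell, and 34.9% of the long ones rose and 23.4% fell. Span and complex go together in these members: 5 of the 7 short genes belong to TRAPP, the others being Cog8 and Exoc8, against 2 of the 9 long ones. Their parts in the difference were not tested. The 3 long genes that fell were Trappc10, Trappc12 and Sec24d.

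**Figure D4:**
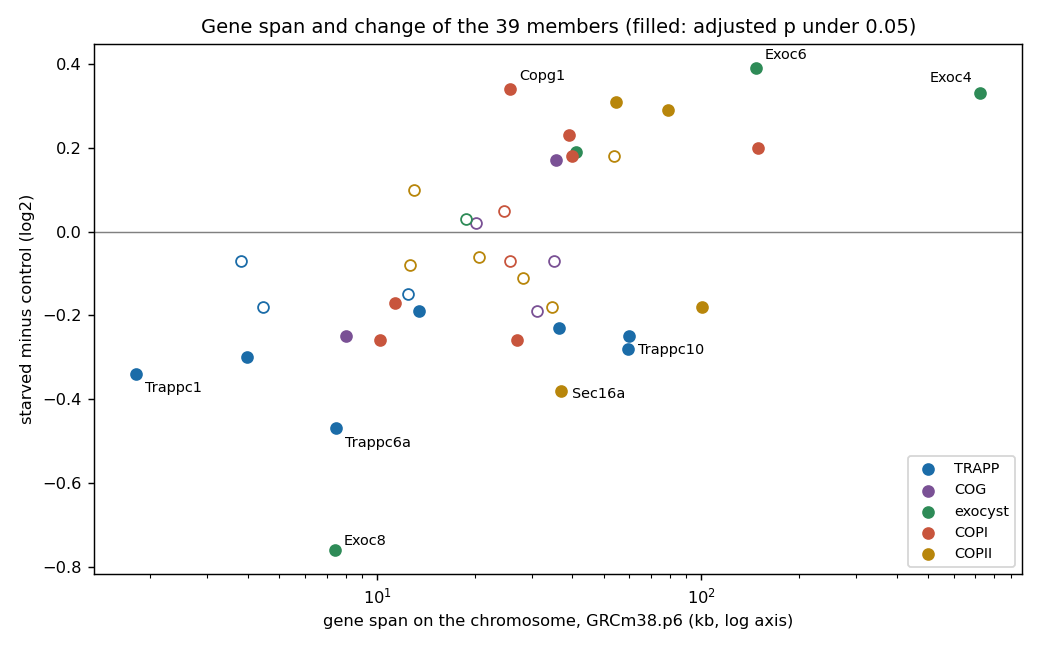
Change of the 39 members (starved minus control, log2, vertical axis) against the span of the gene on the chromosome (kb, log axis), coloured by complex and filled where the adjusted p was under 0.05. Filled points above 0 begin at a span of 25.8 kb (Copg1), and the short genes Exoc8, Trappc6a and Trappc1 lie below 0.

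Promoters were searched because genes of this pathway are known to answer to stress factors of the endoplasmic reticulum such as ATF6 and XBP1, which bind the sequence TGACGTG. The motifs were chosen after the expression values had been seen. RefSeq promoter windows on GRCm38.p6, from 250 bases before to 50 bases after a start site, were found for 36 of the 39 members. On either strand TGACGTG lay in the windows of 5 of the 36 (13.9%: Exoc8, Copb1, Copb2, Sec23a and Sec24d), compared with 3.01% of 9887 tested genes with such a window. Of these 5 genes Copb1 rose, Exoc8 and Sec24d fell, and Copb2 and Sec23a did not pass. In 3 of them the match lay wholly before the start site, and the stretches around it are shown on the strand of the gene, with the match in capitals (CACGTCA where it lies on the opposite strand).
Sec24d, chr3:123267440-123267495, plus strand: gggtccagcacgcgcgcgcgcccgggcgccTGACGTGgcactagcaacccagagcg
Copb1, chr7:114254681-114254737, minus strand: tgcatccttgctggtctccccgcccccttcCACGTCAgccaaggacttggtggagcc
Exoc8, chr8:124897891-124897955, minus strand: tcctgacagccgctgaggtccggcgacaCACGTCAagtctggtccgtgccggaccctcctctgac
In Sec24d and Copb1, which moved in opposite directions, the match began 26 and 27 bases before the start site, and in Exoc8 222 bases before it. The start site used for Sec24d lies inside the annotated gene, which begins at position 123264801. Those of Copb1 and Exoc8 lie at the outer end of the gene. The lysosomal element TCACGTGA, the amino acid response core TGATGNAA and the ER stress element (ERSE) had 0 matches in the 36 windows on either strand, against 1.76%, 3.13% and 0.182% of tested genes. The CCAAT box, which overlaps the ERSE, was found in 13 windows (36.1%, against 42.3% of tested genes). These are matches of letters, which show neither binding nor its absence.

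Other genes of the same transport steps were counted in 8 lists with 157 entries, of which 134 were measured: 31 rose, 36 fell and 67 did not pass, a median change of -0.02. As many passed as did not, a share between the 40.8% of all genes and the 58.8% of genes of the members' brightness, and the lists were bright too (median level 9.03). The counts of single lists moved with the processing, and their ranges over the 16 alternatives are given with them where a count moved by more than 1.5 times. The cargo receptors of the early secretory pathway had the most falls, 11 of 23 against 2 rises (median -0.16), with ranges of 6 to 13 falls and 1 to 3 rises. They included Mcfd2, which carries coagulation factors with Lman1 (-0.50 ± 0.05), Ergic3 (-0.45 ± 0.06) and the p24 protein gene Tmed7 (-0.36 ± 0.06). The KDEL receptor gene Kdelr2, which returns chaperones to the endoplasmic reticulum, was the brightest that did not pass, at 12.32 in both groups. Of 12 golgins and coiled-coil tethers 6 rose and 3 fell (median 0.22, range 1 to 3 falls). The rises included Golga2, which encodes GM130 (0.44 ± 0.06), Cux1, whose locus also encodes a transcription factor (0.34 ± 0.07), and Golga5 (0.33 ± 0.06), while Gorasp2 differed by 0.11 ± 0.05 without passing. A dimmer Cux1 probe set rose by 0.39 ± 0.05, but the rest, with estimates from 0.01 to 0.10, did not pass. Which product of the Cux1 locus gave the signal was not tested. Of 19 ER-Golgi SNARE genes and their regulators 2 rose and 4 fell (median -0.02), but 5 rose and 4 fell both at an unadjusted p under 0.05 and without dim probe sets, and the rises ranged from 1 to 5, so the list leans to neither side. The falls in Use1 (-0.53 ± 0.05), in Nsf, the ATPase that takes SNARE complexes apart (-0.53 ± 0.05), and in Sec22b (-0.51 ± 0.05) were the largest, and Vti1b differed by 0.12 ± 0.06.

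Among the small GTPases that work with these coats and tethers, 3 of 19 Rab and Ral genes rose and 7 fell (median -0.11, range 3 to 9 falls). Rab2a, counted among the rises at 0.24 ± 0.06, has no settled direction. A probe set of Rab2a nearly as bright fell by 0.23 with an SE of 0.05 (limma adjusted p = 0.00822). The sign turned when all Rab2a probe sets were averaged. Of 15 Arf genes and regulators 5 rose and 1 fell (median 0.06), but at an unadjusted p under 0.05 as many as 4 fell beside 5 rises, and the falls ranged from 1 to 4. Rab3ip, which encodes the Rab8 exchange factor Rabin8 that binds Sec15, rose by 0.97 ± 0.05 to a starved mean of 7.97. Rab33b, for a Golgi Rab with a role in autophagy, fell by 0.48 with an SE of 0.05. Rab1a, a substrate of TRAPP, differed by -0.11 ± 0.05 in its brightest probe set without passing. The second Rab1a probe set was at 9.37, 9.44 and 9.30 in control and 9.08, 8.95 and 8.97 in starved cells and fell by 0.37 with an SE of 0.06 (limma adjusted p = 0.00256). Rab1a passed as lower when its probe sets were averaged, without moderation and with an intensity trend. Rab11a, for the Rab on which TRAPPII acts, fell (-0.21 ± 0.06, limma adjusted p = 0.0174). That call was lost without control replicate 1 or starved replicate 2 (range over its alternatives 4.73e-05 to 0.0646). Its second probe set went from 8.45, 8.64 and 8.50 in control to 7.53, 7.36 and 7.46 in starved cells (-1.08 ± 0.07, limma adjusted p = 2.33e-05). The paralog Rab11b leaned the other way without passing (0.16 ± 0.06, limma adjusted p = 0.0554). Every starved array of Rab11b lay above every control array, and it passed as higher in some alternatives, among them averaged probe sets. Of the Ral GTPases that bind the exocyst, Rala rose by 0.49 ± 0.06 in its brightest probe set and fell by 0.42 with an SE of 0.08 in the next, so it has no settled direction (adjusted p = 0.830 when all its probe sets were averaged, lowest of all alternatives 2.40e-07). Ralb, named because of its value and not by the rule for the lists, fell by 0.33 with an SE of 0.07 in a probe set that can match several transcripts and differed by -0.08 ± 0.06 in its other probe set. By brightest probe sets, the largest changes of the Arf group were in genes of GTPase-activating proteins. Arfgap2 of COPI vesicles rose by 0.46 ± 0.06, Git2 by 0.36 ± 0.05 and Git1 by 0.34 ± 0.06. The gene that fell was Arf6 (-0.31 ± 0.07), and its dimmer probe sets fell more (-0.36 ± 0.05, -0.82 ± 0.07 and -0.85 ± 0.06). Arf4 differed by -0.15 ± 0.05 without passing, though a dimmer probe set of it fell by 0.23 with an SE of 0.06.

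Of 9 genes listed as other COPII factors 0 rose and 2 fell in limma's test (1 and 3 at an unadjusted p under 0.05, median 0.00, range 0 to 2 rises). The falls were in Preb, the Sar1 exchange factor also called Sec12 (-0.30 ± 0.06), and Tmem115 (-0.40 ± 0.07). Tmem115 encodes a Golgi membrane protein and is not an established COPII factor. Pdcd6 differed by 0.09 ± 0.06 without passing. Of 10 genes of the Dsl1, GARP, HOPS and CORVET tethers 3 rose and 1 fell (median -0.10, range 1 to 3 falls), with the HOPS and CORVET subunit genes Vps16 up by 0.36 ± 0.07, Vps39 up by 0.31 ± 0.06 and Vps18 at -0.32 ± 0.07, and Vps41 at -0.17 ± 0.06 without passing. Of 27 genes of clathrin and its adaptors 10 rose and 7 fell (median 0.05). By brightest probe sets, Ap1s2 had the largest change of all 8 lists (1.06 ± 0.10). Its dimmer probe sets, near background at control means of 3.01 and 2.82, differed by -0.05 ± 0.10 and -0.01 ± 0.08. A dimmer probe set of Rab11a had a larger absolute change (-1.08 ± 0.07). Ap1s2 was followed here by the clathrin light chain gene Cltb (0.66 ± 0.05) and Ap3m2 (0.65 ± 0.07), and Clta differed by -0.16 ± 0.07 without passing. The rise of Cltb rests on its brightest probe set. Its other probe set, at a control mean of 5.82, differed by -0.07 ± 0.08 without passing. Probe sets called in opposite directions occurred in 3 of the 134 genes (Lman1, Rab2a and Rala).

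**Figure D5:**
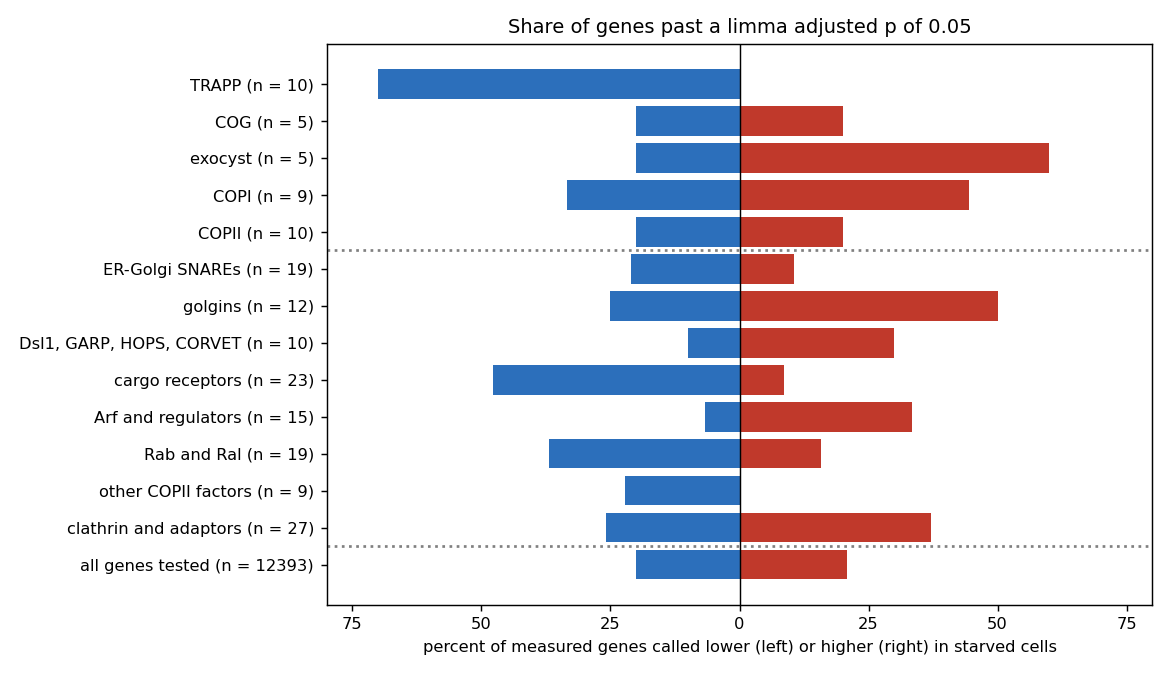
Percent of the measured genes of each complex and list that were called lower (left, blue) or higher (right, red) in starved cells at a limma adjusted p of 0.05, with the number of genes measured in brackets and all 12393 genes at the bottom. TRAPP has calls on the lower side only (7 of 10) and cargo receptors mostly so (11 of 23), while all genes lie at 20.8% higher and 20.1% lower.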

How the data were processed

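Biotin-labelled RNA from 6 samples was measured on Affymetrix mouse arrays. The deposited table holds log2 values, which the authors made with affy and RMA (per the submitters' processing notes, without versions). Since RMA forces the arrays to a common distribution after background correction, it removes any overall shift. Array medians were 6.74 to 6.78. Precision is limited by having 3 arrays per group.

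Of 22690 probe sets, 64 controls were set aside and 22626 tested with limma 3.58.1 (two-sided moderated test, R 4.3.3), with Benjamini-Hochberg adjustment over all probe sets. Probe sets naming several genes (691) or none (1555) went unnamed. Symbols were checked through Entrez identifiers against RefSeq, which changed 0. The fit was tested on simulated data. Figures were drawn with matplotlib 3.10.9.

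The members and lists were chosen with earlier results of these data known. By rule, array values were given for the 5 called members per complex with the largest change, the brightest not called, members with probe sets called in opposite directions and paralogs, and changes for the 3 called genes of each list with the largest change and the brightest not called. Array values outside this rule (Trappc3, Trappc13, Trappc5, Copa, the second probe sets of Rab1a and Rab11a and the probe set shared by Cog8 and Pdf) were added after they were seen. So were Ralb, Rab11a, Rab11b, Rab2a, Arf6 and the dimmer probe sets of Ap1s2, Cltb and Cux1. No scan dates were used here, so batch and group cannot be told apart. Replicate numbers did not pair the arrays (correlation of deviations from group means of -0.094, 0.015 and -0.008 for equal numbers). Alternatives were a filter on dim probe sets (mean under 5), other scalings, moderation, array weights, probe set choice, a threshold of 0.01, the replicate block and leaving out each array.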

Additional observations from a re-analysis of the deposited data

How the results depend on the processing

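Of the 24 members called, 14 passed in all 16 alternatives and 15 in all but the threshold of 0.01. Counts pooled over all 8 pathway lists, unlike those of single lists, and those of TRAPP and the exocyst stayed within 1.5 times of the reported ones in every alternative. Of the members not called, 5 (Trappc4, Trappc5, Cog2, Sec23a and Sec23b) passed under some alternative. At a threshold of 0.01, 5 members rose and 9 fell, with 1 COPI gene higher, 1 COPII gene lower and 0 COG genes either way. With the replicate block 6 members rose, with 2 COPI genes higher, 1 COPII gene lower and 0 COG genes higher. Leaving out an array gave 6 to 8 members higher and 9 to 15 lower, 0 COG genes higher and 0 to 2 lower, 2 to 3 COPI genes higher and 1 to 3 COPII genes lower. COG had 0 genes higher and 2 lower after a second quantile normalization, after centring on array medians and when probe sets were averaged per gene, and 2 lower without dim probe sets and with an intensity trend and robust moderation. With averaged probe sets Trappc5 was at 0.08, Arcn1 at 0.09, Sar1a at -0.04 and Cog1 at 0.00. Cog1 was also at -0.02 without control replicate 1 and -0.01 without starved replicate 3. The cause of these shifts was not tested, except that averaging turned the sign of genes whose probe sets differ in sign.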

Other observations

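Probe sets that name a member beside another gene were left out of the counts. A probe set shared by Cog8 and Pdf fell by 0.81 with an SE of 0.07, from 8.25, 8.39 and 8.36 in control to 7.59, 7.42 and 7.57 in starved cells (limma adjusted p = 7.33e-05), against a fall of 0.25 in the probe set that names Cog8 alone. A pair shared by Exoc6 and Sh3glb1 rose by 0.62 ± 0.06 and 0.49 ± 0.08. A probe set shared by Cog6, Sgip1 and Noct rose by 0.23 ± 0.07. Which of the genes gave these signals was not tested.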
